A study of Mus musculus with 4 samples.

Results

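The 10 genes described here encode mediators through which regulatory T (Treg) cells suppress other cells or help tissue to heal. They are Areg, Il10, Ebi3, Il12a, Fgl2, Lgals1, Lgals3, Penk, Lrrc32 and Furin, and were taken by symbol from the 24087 genes of an RNA-seq table. The cells were Treg cells sorted from spleens of C57BL/6 mice as CD3+CD4+YFP+. In the 2 KO libraries the mice were Foxp3Cre-YFPSetd2f/f, so that a Cre recombinase driven by Foxp3 acts on both floxed alleles of Setd2, whose product is a histone H3K36 methyltransferase. In the 2 CTRL libraries they were Foxp3Cre-YFPSetd2f/+, which carry the same Cre and 1 floxed allele and so are not wild type. Each library pooled cells of 2 mice at steady state, and no treatment is named. Age and sex are not in the labels. The methods describe age-matched littermates of both sexes and give a general age range in weeks, not set for these libraries. All levels are FPKM, fragments per kilobase of gene and scaled to the library's size, so levels of different genes can be compared per length.

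Treg cells restrain immune responses in part through soluble and surface molecules. IL-10 (Il10) is an anti-inflammatory cytokine. EBI3 (Ebi3) pairs with the p35 chain (Il12a) to form IL-35, and galectins and FGL2 act on other leukocytes as secreted proteins. GARP (Lrrc32) holds latent TGF-beta on the Treg surface, and furin (Furin) is a protease that cuts TGF-beta and many other precursors into their mature parts. Amphiregulin (Areg) is a ligand of the EGF receptor tied to tissue repair, and Penk encodes the precursor of the enkephalins, which are opioid peptides.

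Of the 10 genes, 5 rose in KO Treg cells and none fell. These were Fgl2, Il10, Lgals1, Ebi3 and Lgals3, whose KO means were 1.37 to 2.02 times their CTRL means. The test was limma on log2(FPKM + 1), with p adjusted by the Benjamini-Hochberg method over 11399 genes and a threshold of 0.05. Lrrc32, Furin, Areg and Penk were tested and did not pass. Il12a lay below the filter of at least 1 FPKM in 2 libraries, and the 9 genes tested were above 1 FPKM in all 4 libraries. Over all genes tested, 9.75% passed, 5.1% as higher and 4.65% as lower. The median log2 fold change was 0.46 over the 9 genes and -0.022 over all genes tested.

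In 7 of the 9 genes both KO libraries lay above both CTRL libraries, and in Penk both lay below. Such separation in either direction was seen for 64.5% of all genes tested, with KO above for 29% and KO below for 35.5%. With the replicate number as a block, 7 of the 9 passed as higher beside 8.49% of all genes. In limma-voom on recovered reads the number was 5, beside 7.55%.

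The 5 calls rest on all 4 libraries together and on the filter. With any 1 library left out, which leaves 1 library in a group, these calls were lost. The log2 fold changes of the 5 genes then lay between 0.35 (Lgals3) and 0.98 (Fgl2). With all 19888 genes above 0 tested, 0 of the 10 passed in limma, and the 5 genes had adjusted p from 0.0860 to 0.106. An unadjusted p under 0.05 was found for 7 of the 10, all higher, beside 2212 higher and 2251 lower of the 19888 genes.

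At least 28881400 to 31559700 reads stood behind a library. The library with the fewest reads, CTRL 1, had the most genes above 0, with 19100 beside 15913 to 16410 for the others. Setd2 itself gave 23.4 and 25.3 FPKM in CTRL against 21.3 and 19.5 FPKM in KO, with a log2 fold change of -0.24 (adjusted p 0.0970), a value over the whole gene and not over the floxed part. The Treg markers Foxp3, Il2ra, Ikzf2, Ctla4, Tnfrsf18 and Ikzf4 reached 35.9 FPKM or more in every library, while 6 markers of CD8 T and NK cells summed to 14.3 to 16.9 FPKM per library, with Cd8b1 from 8.33 to 11.2 FPKM and Cd8a at most 0.326 FPKM. Markers of other cells were present and differed between libraries. The summed FPKM of 10 myeloid markers was 207 for CTRL 1, 129 for CTRL 2, 260.3 for KO 1 and 103 for KO 2, and each of the 10 was higher in library 1 than in library 2 of both genotypes. Mpo and S100a8 were at 0 in CTRL 2. That pattern also held for 6 of 7 B cell, 5 of 6 plasma cell, 6 of 6 dendritic cell and 4 of 6 erythroid and platelet markers, and no marker in these lists was at 0 in all libraries. The summed level in CTRL and KO spanned 22.2 to 27.0 and 25.1 to 42.5 FPKM for B cells, and 1051 to 1805 and 1735 to 2677 FPKM for plasma cells. It spanned 3.97 to 5.70 and 3.85 to 5.47 FPKM for dendritic cells, and 5.78 to 23.7 and 13.4 to 40.5 FPKM for erythroid cells and platelets. Log2 fold changes of KO minus CTRL were above 0 for all 5 B cell, 5 plasma cell and 4 erythroid and platelet markers tested. They were above 0 for 3 of 8 myeloid and 1 of 2 dendritic cell markers, beside 5271 of all 11399 genes. Of these markers 0 passed. In limma, 2 B cell and 2 plasma cell markers had an unadjusted p under 0.05, beside 3954 of all 11399 genes. Ighm had 893 and 637 FPKM in CTRL against 1238 and 1162 FPKM in KO. In sorted bulk cells, fewer cells of a Treg subset and less RNA per cell cannot be told apart.

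Sequences upstream of the RefSeq transcription start are shown for the 3 called genes with an entry and for Areg. The letters near these starts thus stand beside the values. They are the 250 bases before the RefSeq start on GRCm38.p6, and capitals mark matches to the motifs searched. That start can differ from the GENCODE positions given for the genes. The Lgals3 stretch lies inside the GENCODE span of Lgals3 (47367751 to 47386160). The end of the Fgl2 stretch, with its AP-1 match, lies past the GENCODE start of Fgl2 (21372642). RefSeq entries of this kind matched 6 of the 10 genes, and Il10, Lgals1, Penk and Lrrc32 are named only.
Fgl2, chr5:21372423-21372672, plus strand: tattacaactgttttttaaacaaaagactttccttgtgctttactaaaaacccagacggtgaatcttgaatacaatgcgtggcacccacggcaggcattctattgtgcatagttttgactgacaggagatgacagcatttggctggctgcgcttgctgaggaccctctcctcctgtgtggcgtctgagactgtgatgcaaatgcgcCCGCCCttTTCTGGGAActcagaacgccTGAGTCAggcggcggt
Ebi3, chr17:55952373-55952622, plus strand: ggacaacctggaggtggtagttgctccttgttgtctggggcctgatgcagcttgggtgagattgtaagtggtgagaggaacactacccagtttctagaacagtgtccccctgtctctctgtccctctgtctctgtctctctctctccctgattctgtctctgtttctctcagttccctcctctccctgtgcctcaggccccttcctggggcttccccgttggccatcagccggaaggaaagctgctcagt
Lgals3, chr14:47373610-47373859, plus strand: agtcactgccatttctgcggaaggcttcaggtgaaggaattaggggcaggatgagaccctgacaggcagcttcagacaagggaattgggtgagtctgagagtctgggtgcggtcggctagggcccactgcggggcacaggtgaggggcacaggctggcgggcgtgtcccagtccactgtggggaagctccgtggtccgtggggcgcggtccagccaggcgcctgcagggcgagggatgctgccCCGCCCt
Areg, chr5:91139349-91139598, plus strand: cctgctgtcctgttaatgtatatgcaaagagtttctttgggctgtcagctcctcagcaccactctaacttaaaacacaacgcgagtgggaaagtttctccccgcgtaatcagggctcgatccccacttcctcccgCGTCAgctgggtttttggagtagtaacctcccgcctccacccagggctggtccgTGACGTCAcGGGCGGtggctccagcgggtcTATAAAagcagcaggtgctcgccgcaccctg

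On both strands, 8 motifs were searched, and their shares are given over 32851 promoters of the same length. Fgl2 held a match to the AP-1 motif, written TGANTCA and found in 6.75% of promoters, at -16 to -10 from the RefSeq start. It also held the STAT motif at -36 to -28, which is TTC and GAA parted by any 3 bases and was found in 7.02%. The GC box, written GGGCGG and found in 32.7% of promoters, lay at -44 to -39 in Fgl2, at -7 to -2 in Lgals3 and at -52 to -47 in Areg. Areg held the full cAMP response element, written TGACGTCA and found in 1.55%, at -61 to -54. The core of that element, TGACG, lies within it on both strands, was found in 17.8% and had a further match in Areg at -115 to -111. Areg also held a TATA box, written TATAAA and found in 12.4%, at -31 to -26. An E-box, CACGTG, found in 6.02%, and the core of the interferon-stimulated response element, found in 2.98% of promoters, were in none of the 4 stretches, and Ebi3 held none of the 8 motifs. The latter core was searched as GAAA, any 2 bases, then GAAA again. The share of G and C was 66.0% in Lgals3, 57.2% in Areg, 56.0% in Ebi3 and 49.6% in Fgl2, beside a median of 52.4% over all promoters.

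The levels spanned a wide range. In CTRL, Lgals1 was highest with a mean of 274 FPKM, followed by Penk (100.4 FPKM) and Lrrc32 (99.7 FPKM), whose libraries overlapped. Il10 came next at a mean of 24.3 FPKM. Furin, Lgals3, Ebi3 and Areg, with means from 20.6 to 19.4 FPKM, had neighbours whose values overlapped. Fgl2 followed at 10.4 FPKM and Il12a was last at 0.155 FPKM. In KO the order of means was Lgals1 (443 FPKM), Lrrc32 (123 FPKM), Penk (71.8 FPKM), Il10 (44.6 FPKM) and Ebi3 (31.9 FPKM), then Lgals3, Areg and Furin, then Fgl2 and Il12a. Among neighbours in that order only Lgals3 with Areg and Areg with Furin overlapped.

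**Figure D1:**
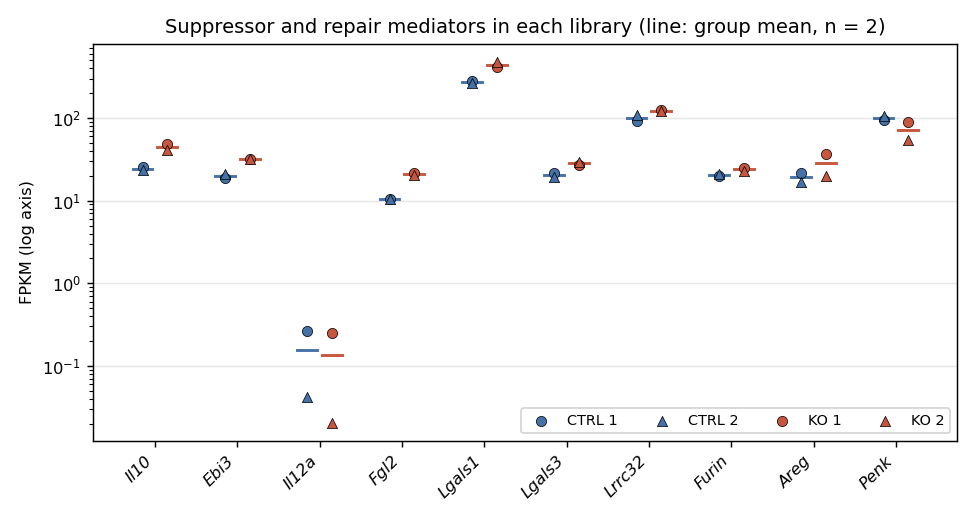
FPKM (log axis) of the 10 mediator genes in each library, with CTRL in blue, KO in red, circles for libraries 1, triangles for libraries 2 and a line at each group mean (n = 2). Il10, Ebi3, Fgl2, Lgals1, Lgals3, Lrrc32 and Furin have both KO libraries above both CTRL libraries, Areg and Il12a overlap, and Penk is lower in both KO libraries.

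Il10 (chromosome 1, 131019845 to 131024974 on GRCm38, plus strand) had 25.2 FPKM in CTRL 1 and 23.4 in CTRL 2, compared with 48.6 in KO 1 and 40.6 in KO 2. Both KO libraries lay well above both CTRL libraries, and the mean rose from 24.3 ± 1.29 to 44.6 ± 5.67 FPKM (SD, n = 2 for each genotype), or 1.83 times. This was a log2 fold change of 0.84 (standard error 0.10, adjusted p 0.0346), rank 143 of 11399, and it rested on 1059 reads or more in each library. On the log2 scale the difference was 0.92 between the libraries 1, which held more of the myeloid markers, and 0.77 between the libraries 2. The part of other cells in this rise, B and plasma cells among them, was not tested.

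Ebi3 (chromosome 17, 55952640 to 55957022, plus strand) had 19.0 FPKM in CTRL 1 and 21.1 in CTRL 2, compared with 31.998 in KO 1 and 31.9 in KO 2. The KO libraries were nearly equal and both exceeded the CTRL libraries. Its mean rose from 20.1 ± 1.49 to 31.9 ± 0.0801 FPKM (SD, n = 2 for each genotype), a log2 fold change of 0.65 (standard error 0.072, adjusted p 0.0329). The part of other cells in this rise, B and plasma cells among them, was not tested. Exons of Gm16712 on the other strand overlap Ebi3, and as the use of strand in counting is not given in the sources used here, reads of both genes cannot be told apart.

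Il12a, the partner chain in IL-35 (chromosome 3, 68690644 to 68698547, plus strand), was close to undetected. It had 0.267 FPKM in CTRL 1 and 0.0421 in CTRL 2, compared with 0.248 in KO 1 and 0.0206 in KO 2, which are at least 12, 2, 12 and 1 reads. It entered a test only where all genes above 0 were tested, and it did not pass there. The higher values were in CTRL 1 and KO 1, the libraries with more of the myeloid markers, and the part of other cells in them was not tested. Il27, whose product pairs with EBI3 to form IL-27, was at most 0.281 FPKM in any library.

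Receptors and relatives of these cytokines made a list of 14 genes, of which 5 were tested, 2 rose and 1 fell. Of all genes tested, 5.1% passed as higher and 4.65% as lower. Il10ra, the ligand-binding chain of the IL-10 receptor, rose from 32.5 ± 1.06 to 41.2 ± 0.670 FPKM (SD, n = 2 for each genotype), with a log2 fold change of 0.33 (adjusted p 0.0399). Il10rb, its second chain, averaged 49.8 FPKM in CTRL and 48.1 in KO, with a log2 fold change of -0.051 (95% interval -0.21 to 0.11). For Il12rb1, a chain shared by the IL-12 and IL-23 receptors, CTRL gave 22.9 and 21.9 FPKM and KO gave 34.1 and 35.2 FPKM. It rose by 0.61 on the log2 scale (adjusted p 0.0306). Il6st, which encodes the signalling chain gp130 of several cytokine receptors, dropped from a mean of 44.992 ± 4.24 to 32.6 ± 1.99 FPKM (SD, n = 2 for each genotype), a log2 fold change of -0.45 (adjusted p 0.0441). Il27ra, which pairs with gp130 in the IL-27 receptor, averaged 142 FPKM in CTRL and 129 in KO and did not pass (adjusted p 0.160). The 9 genes below the filter included Il12b (at most 0.0871 FPKM) and Il23a (at most 0.179 FPKM).

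Transcription factors known to act on Il10 made a list of 9 genes. All 9 were tested, 4 rose (Irf4, Nfil3, Ahr and Batf) and 5 did not pass, and the median log2 fold change was 0.50. Of all genes tested, 5.1% passed as higher, and their median log2 fold change was -0.022 over the whole set. For Irf4, a factor of effector Treg cells, CTRL gave 18.0 and 16.7 FPKM and KO gave 35.7 and 28.0 FPKM, a log2 fold change of 0.83 (adjusted p 0.0355). Any part of B and plasma cells in the rise of Irf4 was not tested. Nfil3, a basic leucine zipper factor, rose from 31.4 ± 3.58 to 63.0 ± 14.3 FPKM (SD, n = 2 for each genotype), a log2 fold change of 0.97 (adjusted p 0.0405). Ahr, the aryl hydrocarbon receptor, rose from 9.68 ± 0.0212 to 14.9 ± 2.27 FPKM, a log2 fold change of 0.57 (adjusted p 0.0450). Exons of Gm48236 on the other strand overlap Ahr, with the limit given for Ebi3. Batf, an AP-1 factor that partners with IRF4, had 79.7 and 72.9 FPKM in the CTRL libraries and 108 and 108 FPKM in the KO libraries, a log2 fold change of 0.50 (adjusted p 0.0346).

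Prdm1, which encodes Blimp-1, did not overlap between genotypes, with 7.83 and 5.36 FPKM in the CTRL libraries and 10.7 and 10.1 FPKM in the KO libraries, but missed the threshold (adjusted p 0.0779). It passed with the replicate number as a block and in limma-voom on recovered reads. Any part of B and plasma cells in the Prdm1 values was not tested. Bhlhe40 had 158 and 155 FPKM in the CTRL libraries and 271 and 156 FPKM in KO 1 and KO 2, so that KO 1 alone stood apart. Maf, Stat3 and Gata3 had overlapping libraries and log2 fold changes of 0.19, 0.046 and 0.12.

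**Figure D2:**
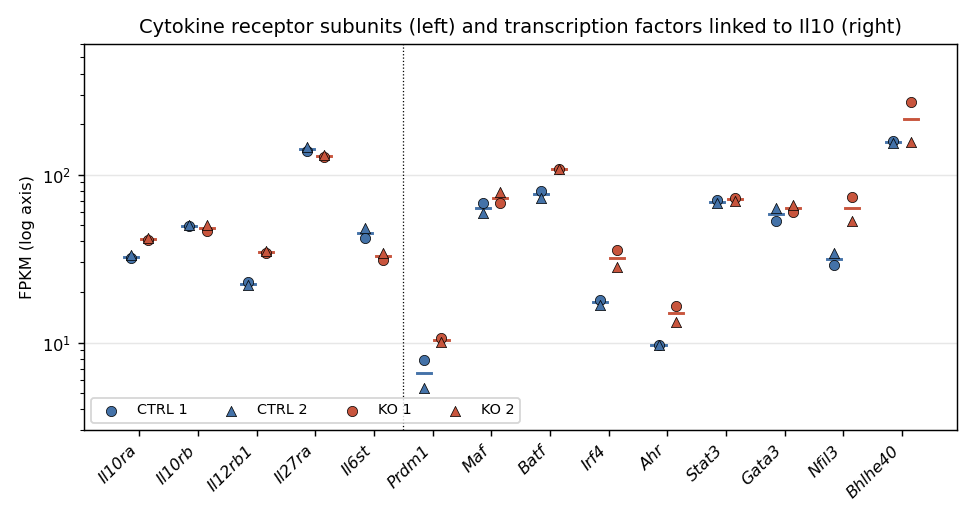
FPKM (log axis) in each library of the 5 cytokine receptor subunits tested, left of the dotted line, and of 9 transcription factors linked to Il10, right of it; colours and symbols give genotype and library number, and lines are group means (n = 2). Il10ra, Il12rb1, Batf, Irf4, Ahr and Nfil3 rose in KO and Il6st fell.

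Among the genes for secreted proteins, Fgl2, Lgals1 and Lgals3 all rose. Fgl2, a fibrinogen-like protein that binds the inhibitory receptor FcgammaRIIB (chromosome 5, 21372642 to 21378374, plus strand), had the largest fold change of the 9 genes tested. It had 10.4 FPKM in CTRL 1 and 10.4 in CTRL 2, compared with 21.5 in KO 1 and 20.3 in KO 2. Libraries of one genotype were close, and the KO mean was 2.02 times the CTRL mean. This was a log2 fold change of 0.95 (standard error 0.066, adjusted p 0.0299), rank 93 of 11399, and at least 642 reads stood behind each value. Between the libraries 1 the difference was 0.98 and between the libraries 2 it was 0.91. Fgl2 lies within the span of Ccdc146, with no shared exon.

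Lgals1 (chromosome 15, 78926725 to 78930465, plus strand) encodes galectin-1, a lectin that can induce apoptosis of activated T cells. It had 279 FPKM in CTRL 1 and 269 in CTRL 2, compared with 410.0 in KO 1 and 476 in KO 2. In every library it was the most abundant of the 10 genes in FPKM, and its mean rose from 274 ± 6.86 to 443 ± 46.7 FPKM (SD, n = 2 for each genotype). The rise was 0.69 on the log2 scale (standard error 0.086, adjusted p 0.0346).

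Lgals3 (chromosome 14, 47367751 to 47386160, plus strand) encodes galectin-3, which binds N-glycans at the cell surface and is abundant in macrophages. It had 21.9 FPKM in CTRL 1 and 19.2 in CTRL 2, compared with 26.8 in KO 1 and 29.6 in KO 2. The KO values exceeded the CTRL values by more than the gap within either genotype, and the KO mean was 1.37 times the CTRL mean. Its log2 fold change of 0.44 (standard error 0.091) lay just past the threshold, with an adjusted p of 0.0490, and did not pass with a pseudocount of 0.1 (adjusted p 0.0501) or without the variance trend (adjusted p 0.0654). The difference was 0.28 between the libraries 1 and 0.60 between the libraries 2, and the part of myeloid RNA in it was not tested.

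No other galectin passed. Of 13 genes for galectins, a galectin-binding protein and enzymes that build N-glycans, 11 were tested and 0 passed in limma. Beside 3954 of all 11399 genes tested, 1 of the 11 had an unadjusted p under 0.05. Their median log2 fold change was 0.012. Lgals9, which encodes the TIM-3 ligand galectin-9, averaged 104 ± 9.77 FPKM in CTRL and 119 ± 11.8 FPKM in KO (SD, n = 2 for each genotype), with overlapping libraries. St6gal1, a sialyltransferase, had a log2 fold change of -0.065 (95% interval -0.29 to 0.16). Of 4 genes around FGL2, 3 were tested and 0 passed in limma, with 0 at an unadjusted p under 0.05. Fcgr2b, the FGL2 receptor gene, was at most 1.23 FPKM, and the relative Fgl1 was listed at 0 in every library. Fcgr3 had 9.71 FPKM in CTRL 1 and 5.48 in CTRL 2, compared with 11.5 in KO 1 and 5.19 in KO 2, higher in both libraries 1. Lag3, a checkpoint receptor that binds FGL1, averaged 22.9 FPKM in CTRL and 25.2 in KO (adjusted p 0.560).

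**Figure D3:**
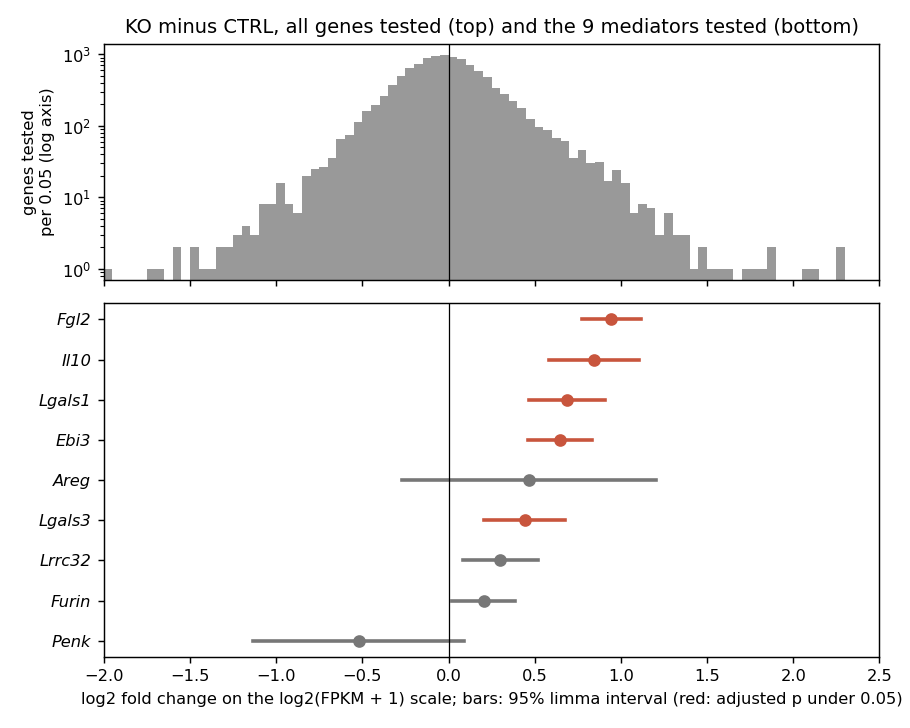
Top, number of genes (log axis) by log2 fold change of KO minus CTRL for all 11399 genes tested, with values beyond the axis drawn at its ends; bottom, the 9 mediators tested on the same scale with 95% limma intervals. Fgl2, Il10, Lgals1, Ebi3 and Lgals3 (red) passed the threshold, and the intervals of Areg and Penk include 0.

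Lrrc32 (chromosome 7, 98489283 to 98502181, plus strand), the latent TGF-beta anchor, had 92.0 FPKM in CTRL 1 and 107 in CTRL 2, compared with 123 in KO 1 and 122 in KO 2. The genotypes did not overlap, and the gap between the CTRL libraries was about as wide as that between CTRL 2 and KO. The log2 fold change was 0.30 (95% interval 0.082 to 0.52, adjusted p 0.0807), and 0.19 without CTRL 1.

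Furin (chromosome 7, 80388585 to 80405436, minus strand) had 20.1 FPKM in CTRL 1 and 21.1 in CTRL 2, compared with 24.9 in KO 1 and 22.8 in KO 2. These libraries did not overlap either, but the log2 fold change was only 0.20 (95% interval 0.02 to 0.39, adjusted p 0.118). Exons of Gm44851 on the other strand overlap Furin. Without either library 1, its log2 fold change was 0.11.

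Of 12 other genes for TGF-beta ligands, their latency and their activation, 4 were tested and 0 passed in limma. Beside 3954 of all 11399 genes tested, 1 had an unadjusted p under 0.05. That gene was Tgfb1, for which CTRL gave 153 and 165 FPKM and KO gave 186 and 176 FPKM, a log2 fold change of 0.18 (adjusted p 0.121). Itgb8 and Itgav, whose products form an integrin that activates latent TGF-beta, had log2 fold changes of -0.17 and 0.043. Nrros, which encodes a relative of GARP, averaged 28.1 FPKM in CTRL and 29.1 in KO. Among 10 further convertases and carboxypeptidases, 5 were tested and 1 passed, beside 9.75% of all genes tested. Pcsk4, best known from germ cells, dropped from a mean of 5.10 ± 0.438 to 2.94 ± 0.317 FPKM (SD, n = 2 for each genotype), a log2 fold change of -0.63 (adjusted p 0.0405). Mbtps1, which encodes site-1 protease, averaged 41.9 FPKM in CTRL and 39.1 in KO, and Pcsk7 15.4 and 15.5 FPKM.

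Areg, the repair factor (chromosome 5, 91139599 to 91148432, plus strand), had 21.9 FPKM in CTRL 1 and 17.0 in CTRL 2, compared with 36.3 in KO 1 and 20.039 in KO 2. KO 1 stood apart, while KO 2 lay between the CTRL libraries. The mean was 19.4 ± 3.48 FPKM in CTRL and 28.1 ± 11.5 FPKM in KO (SD, n = 2 for each genotype), and the 95% interval of the log2 fold change ran from -0.27 to 1.20 (adjusted p 0.307). The log2 fold change of 0.46 became 0.053 without KO 1, 0.88 without KO 2 and 0.29 without CTRL 2, and with the replicate number as a block it passed (adjusted p 0.0489), as did that of Lrrc32 (0.0499). In both genotypes the library with more of the myeloid markers had the higher Areg level, and the part of those cells was not tested.

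Areg is made as a membrane-bound precursor that ADAM17 can release, so the genes of the EGF family and its sheddases were read beside it. Of 15, 6 were tested and 0 passed in limma. Over all 11399 genes tested, 3954 had an unadjusted p under 0.05, and here 2 did. These were Hbegf, another EGF receptor ligand, with means of 0.892 FPKM in CTRL and 1.49 in KO (adjusted p 0.0910), and Rhbdf1, an inactive rhomboid, with 0.783 and 1.38 FPKM (adjusted p 0.0908). Both passed as higher without the variance trend, and Rhbdf1 also in limma-voom on recovered reads. Adam17 averaged 20.9 FPKM in CTRL and 23.4 in KO, and Adam10 27.7 and 25.9 FPKM. Egfr, the receptor gene, was at most 0.0788 FPKM in any library.

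Penk (chromosome 4, 4133531 to 4138819, minus strand) was the only one of the 9 genes tested with a negative fold change. It had 94.8 FPKM in CTRL 1 and 106 in CTRL 2, compared with 89.8 in KO 1 and 53.9 in KO 2. KO 1 was close to the CTRL libraries, and the KO libraries differed from each other by more than the means did. The mean was 100.4 ± 7.98 FPKM in CTRL and 71.8 ± 25.4 FPKM in KO (SD, n = 2 for each genotype), with a log2 fold change of -0.52 (95% interval -1.13 to 0.092, adjusted p 0.195). It was -0.16 without KO 2 and -0.88 without KO 1. Exons of A830012C17Rik on the other strand overlap Penk. Pcsk1 and Pcsk2, convertases that release enkephalins in neurons, were at most 0.815 and 0.00642 FPKM. The opioid receptor genes Oprd1 and Oprm1 were at most 0.0282 and 0.0644 FPKM, and Oprk1 was listed at 0. Dpp3, a peptidase that can degrade enkephalins, averaged 30.6 FPKM in CTRL and 35.6 in KO (adjusted p 0.0772) and was the only one of 10 opioid genes tested.

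**Figure D4:**
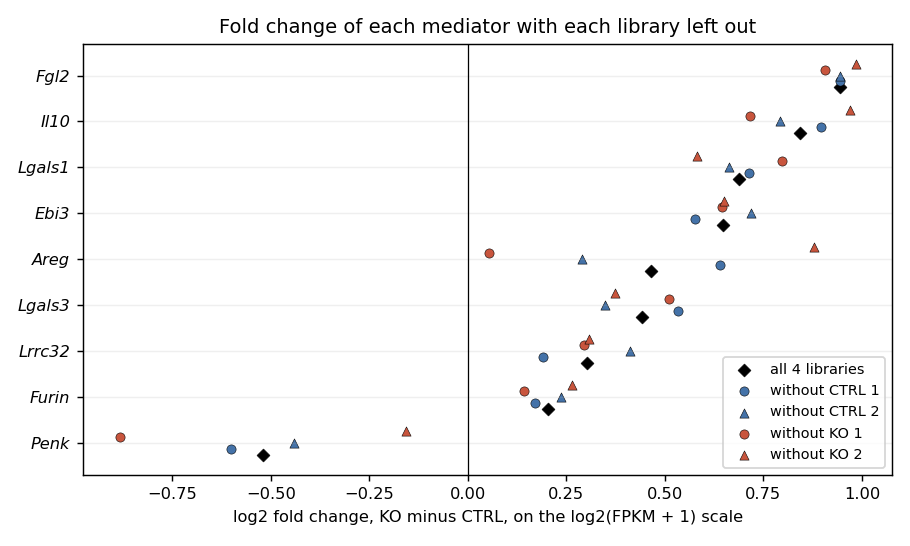
Log2 fold change of KO minus CTRL for the 9 mediators tested with all 4 libraries (black diamonds) and with each library left out in turn (blue, a CTRL library; red, a KO library; circles, library 1; triangles, library 2). Fgl2 stays between 0.91 and 0.98, while Areg moves between 0.053 and 0.88 and Penk between -0.88 and -0.16.

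Of 12 other molecules known from Treg suppression, all were tested, 3 rose, 1 fell and 8 did not pass. The shares of all genes tested that passed were 5.1% as higher and 4.65% as lower. For Gzmb, the cytotoxic protease granzyme B, CTRL gave 17.0 and 14.6 FPKM and KO gave 36.6 and 47.2 FPKM, a log2 fold change of 1.34 (adjusted p 0.0306). The costimulator Icos (log2 fold change 0.63, adjusted p 0.0346) and the coreceptor Nrp1 (0.41, adjusted p 0.0375) also rose. Nt5e, the gene of the adenosine-producing enzyme CD73, dropped from a mean of 74.6 ± 1.39 to 55.7 ± 1.32 FPKM (SD, n = 2 for each genotype), a log2 fold change of -0.42 (adjusted p 0.0346). Tigit, an inhibitory receptor, averaged 157 FPKM in CTRL and 239 in KO and missed the threshold (adjusted p 0.0513). It passed with a filter at a mean above 5 FPKM, with median-ratio scaling and with a robust variance model. It also passed with the replicate number as a block and in limma-voom on recovered reads. Ctla4, an inhibitory receptor and the most abundant of the list, averaged 544 and 595 FPKM.

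Of 10 genes that mark repair-type Treg cells in tissues, all were tested, 2 rose (Nfil3 and Batf), 1 fell and 7 did not pass. The gene that fell was Il1rl1, which encodes the IL-33 receptor ST2, and IL-33 can induce Areg in Treg cells. For Il1rl1, CTRL gave 11.2 and 12.6 FPKM and KO gave 4.21 and 6.25 FPKM, a log2 fold change of -1.07 (adjusted p 0.0379). Over all 105 genes of these lists, 62 were tested, 9 rose, 4 fell, and the median log2 fold change was 0.14, beside the 5.1% and 4.65% of all genes tested that passed as higher and lower. These calls were also lost in limma with any 1 library left out or with all genes above 0 tested. Ahr, Nfil3, Il10ra, Il6st and Nrp1 did not pass without the variance trend, and with quantile normalization Pcsk4 did not.

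The genes whose pattern over the 4 libraries was most like each mediator were sought among 8637 genes with a mean above 5 FPKM in either group, by the distance between log2 values centred on each gene's mean. This is a description only, from the same 4 libraries as the tests, and shared regulation was not tested. For Il10 the closest were Irf4 (distance 0.059) and Trex1 (0.061), and for Lgals1 they were Anxa2 (0.046) and Agpat4 (0.069). Anxa2 had 57.9 and 58.2 FPKM in the CTRL libraries and 85.9 and 101 FPKM in the KO libraries. They were Adap1 (0.069) and Cdc6 (0.088) for Fgl2, Pkp3 (0.063) and Trp53i11 (0.069) for Ebi3, and Dstn (0.049) and Tedc1 (0.051) for Lgals3. Scamp4 (0.019) and Ino80e (0.026) were closest to Lrrc32, and Cdin1 (0.012) and Usp38 (0.019) to Furin. The closest genes lay farther off for Areg, with Ier5l (0.11) and Plek (0.15), and for Penk, with Snord53 (0.17) and Rogdi (0.19).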

How the data were processed

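Poly(A) RNA of pooled splenic Treg cells was sequenced as read pairs. Per the labels and methods, the authors aligned reads to mm10 (GRCm38) by HISAT2 (2.2.1), counted them per gene by featureCounts (2.0.1) and deposited FPKM values, and the authors tested their counts by edgeR (3.34.0). Gene length, annotation version, multi-mapping and strand are not given in the sources used here. Columns named WT plus a number were taken as the CTRL library of that number. The libraries of a group are biological replicates, each pooled from 2 mice, per the series' design text.

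FPKM is not a count, so limma (3.58.1, R 4.3.3) was run on log2(FPKM + 1) with an intensity trend, two-sided, for 11399 genes at 1 FPKM or more in at least 2 libraries, with Benjamini-Hochberg adjustment and a threshold of 0.05. This scale understates changes of weak genes. Of 19888 genes above 0, 99.955% had FPKM values in whole-number ratios between libraries (tolerance 0.003), which gave relative depths of 1 to 1.08 and the least reads behind each value. Precision is limited by 2 libraries per group.

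Positions and overlaps came from GENCODE vM21 on GRCm38, promoters from RefSeq on GRCm38.p6. The procedure was also run on simulated reads, in which libraries of a group differed only by depth and random spread. Differences in other cells between libraries were not simulated, so that run cannot show how the calls here depend on them. From the lists of related genes, those past the threshold and the 2 most abundant tested genes of each list were named by rule, as were the 2 genes most like each mediator; others were named after their values were seen. The members and lists were chosen with earlier results of these data known. Alternatives were another pseudocount (0.1), other filters, scalings and variance models, limma-voom on recovered reads, a block for replicate number, and omission of each library. Omitting both libraries 1 was added after seeing the data. Other steps used Python 3.11.15 with numpy 2.4.6, pandas 2.3.3 and matplotlib 3.10.9.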

Additional observations from a re-analysis of the deposited data

How the results depend on the processing

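The fold changes of the 9 genes tested kept their direction in all settings run. With all genes above 0 tested, 0 genes in all, 0 mediators and 0 of the related genes passed in limma in either direction, although an unadjusted p under 0.05 was found for 2212 higher and 2251 lower genes. The cause was not tested, and neither was the part of the larger number of genes above 0 in CTRL 1 (19100). Dropping the variance trend left 315 higher genes, compared with 581. In limma-voom on recovered reads, 1026 genes were called lower, compared with 530, and 14 related genes higher, compared with 9. Omitting 1 library at a time gave 0 to 1 higher and 0 to 1 lower calls over all genes in limma, with 1342 to 1423 higher and 1292 to 1621 lower at an unadjusted p under 0.05, and 0 calls among mediators and related genes. These fits leave 1 library in a group, which is assumed to vary like the others. In the remaining settings without a block, 4 or 5 mediators passed as higher and 0 as lower. Omitting both libraries 1 gives values with no test, namely log2 fold changes of 0.60 for Lgals3, 0.11 for Furin and -0.36 for Setd2.

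The labels tie the replicate numbers to no litter or day, although markers of several other cell types were higher in library 1 of both genotypes. A block for that number gave 968 higher and 805 lower genes, 14 higher related genes and 7 higher mediators, with Areg (adjusted p 0.0489) and Lrrc32 (adjusted p 0.0499) added. Across genes, deviations of same-numbered libraries correlated with a Pearson r of 0.342 and a Spearman rho of 0.055. For Il12a the recovered reads were at least 12, 2, 12 and 1 in the 4 libraries.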
